A study of Mus musculus with 16 samples.

Results

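The genes described here are 10 heat shock chaperones, Hspa1a, Hspa1b, Hsp90aa1, Hsp90ab1, Hspa4, Hspa8, Hsph1, Dnajb1, Hspd1 and Hspe1, in macrophages sorted from mouse gliomas. They were chosen by name, and each was read from the probe sets annotated to its symbol alone, using the 1 with the highest mean over 16 arrays and keeping the others as a check. Of the 12394 genes measured, 9 were on the list, because no probe set carried the symbol Hsp90ab1 alone, and that gene was not analysed here. Hspa1a, Hspa1b and Hsp90aa1 were already known to be lower after treatment when the list was drawn up. Their difference between the groups is therefore given as a description, without a p-value except where a subset of mice or an added covariate ended the call, and it supports nothing further.

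Heat shock chaperones bind unfolded proteins, keep them from aggregating and help them to refold. Hsp70 proteins hold a client and release it in cycles driven by ATP, J proteins such as Dnajb1 deliver clients to them, the Hsp110 proteins Hspa4 and Hsph1 exchange their nucleotide, and Hsp90 receives clients such as kinases and steroid receptors. When cells are heated or otherwise stressed, heat shock factor 1 binds repeated GAA units upstream of several of these genes and their transcripts rise within minutes, while Hspa8 and the mitochondrial pair Hspd1 and Hspe1 are also made at a high level without stress.

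Gliomas had been started in Nestin-Tv-a;Ink4a/Arf-/- mice of mixed background by injecting DF-1 chicken cells that release RCAS-PDGF-B-HA, a virus that can enter only cells carrying the Tv-a receptor from the Nestin promoter, so all mice shared the Ink4a/Arf deletion and a PDGF-B-driven tumour. After MRI, 8 mice received BLZ945, which blocks the kinase of the CSF-1 receptor that macrophages depend on, and 8 received its vehicle of 20% captisol, by gavage once a day for 7 days. The labels give the BLZ945 dose as 200 mg, with no body weight. Vehicle mice were 11.29 weeks old (4 mice), 11.43 or 12.29 weeks, and BLZ945 mice 11.29 weeks (4 mice) or 13.14 weeks (4 mice), with 4 females and 4 males in Vehicle and 5 and 3 in BLZ945. Tumours of both groups were digested with papain, CD11b+ Gr.1- cells were sorted, and 75 ng of RNA per mouse was hybridised to a 3' expression array. Each array is 1 mouse, and levels are log2 values, so a difference of 1 is a doubling of the signal and levels of different genes are not compared.

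Macrophage markers were bright in both groups: Csf1r, the receptor BLZ945 acts on, was at 13.61 ± 0.14 in Vehicle and 13.66 ± 0.12 in BLZ945, and Tyrobp, a signalling adaptor, at 13.17 ± 0.11 and 13.32 ± 0.13 (SD, n = 8 each). Of 9 macrophage markers 1 passed the test, Itgam, which encodes CD11b, the antigen of the sort; it fell by 1.17 (limma adjusted p = 0.00807) and is named after its value was seen. Of 9 measured markers of glioma and oligodendrocyte precursor cells, 5 fell and 0 rose, against 5.34% of all genes lower and 2.6% higher. Olig1 fell by 1.95, from 8.66 ± 0.72 to 6.71 ± 1.13, and Cspg4 differed by 0.44 (SD, n = 8 each; limma adjusted p = 0.424). The list's mean level ranged from 6.31 to 8.09 in Vehicle and from 4.95 to 6.78 in BLZ945 mice. No marker passed the test in the other 9 lists, of oligodendrocytes, astrocytes, neurons, endothelium, pericytes, neutrophils, T, B and natural killer cells. The 3 measured natural killer markers differed by 0.41 to 1.31, with Nkg7 at 1.03 (adjusted p = 0.0588), and the list's mean level was 3.96 to 5.54 in Vehicle and 4.33 to 7.22 in BLZ945 mice, highest in BLZ945 mouse 6. The part of these cells in the results below was not tested. In bulk RNA, fewer cells of a type and less RNA per cell cannot be told apart. The labelled initial tumour volume, whose unit is not labelled, was 11.9 to 27.3 in the 6 Vehicle mice that have one and 41.3 to 132.3 in BLZ945 mice, so volume and treatment cannot be told apart. An enrolment range of 4.5 to 40 mm3 is given for all mice. If the unit is the same, every BLZ945 value lies above that range.

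The promoters of the inducible pair are printed because these 2 genes carry the largest differences and are nearly the same sequence. Hspa1a and Hspa1b encode the stress-inducible Hsp70 and lie on the minus strand of chromosome 17, at chr17:34969359-34972156 and chr17:34956429-34959238, 10120 bases apart (RefSeq, GRCm38.p6). Of the 250 bases before each start site, chr17:34972157-34972406 and chr17:34959239-34959488, 247 were identical (98.8%). The substitutions are T44C, C47T and G249T, with the base of Hspa1b first, the position counted from 1 at the 5' end and the base of Hspa1a last. Capitals mark the paired GAA units GAANNTTC, at 104 to 97 bases before the start of both genes.
Hspa1a: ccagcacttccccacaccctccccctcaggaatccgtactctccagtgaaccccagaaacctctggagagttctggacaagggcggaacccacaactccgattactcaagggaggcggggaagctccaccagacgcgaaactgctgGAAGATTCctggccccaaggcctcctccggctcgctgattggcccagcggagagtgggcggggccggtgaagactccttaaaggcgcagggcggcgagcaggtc
Hspa1b: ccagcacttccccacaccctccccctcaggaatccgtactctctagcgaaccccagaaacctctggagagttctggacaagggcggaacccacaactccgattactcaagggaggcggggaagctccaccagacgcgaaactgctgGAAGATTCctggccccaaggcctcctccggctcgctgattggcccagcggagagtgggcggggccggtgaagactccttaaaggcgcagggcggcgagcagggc
The capital stretch and its surroundings are the same in both. Because their coding sequences are also nearly identical, probe sets named for 1 of the 2 genes may read transcripts of both.

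The second printed site is shared by 2 members. Hspd1, the mitochondrial Hsp60 chaperonin, and Hspe1, its Hsp10 lid, are divergent neighbours on chromosome 1 whose annotated genes overlap by 96 bases. The stretch below lies before the start of Hspe1 and before the second, inner start of Hspd1, at chr1:55088053-55088082 on the plus strand (GRCm38.p6). Capitals mark 18 bases made of 3 overlapping motifs of the 2 searched, GAANNTTC and TTCNNGAA, 89 to 72 bases before the start of Hspe1 and 144 to 127 before that inner start of Hspd1; the window of the outer start of Hspd1 held neither motif. Hsph1, an Hsp110 gene, has 1 TTCNNGAA in capitals, at chr5:149636351-149636380 on the minus strand, 33 to 26 bases before its first start.
Hspd1 and Hspe1: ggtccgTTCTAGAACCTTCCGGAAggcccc
Hsph1: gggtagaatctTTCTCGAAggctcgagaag
Both motifs read the same on either strand. In the 250 bases before a start, GAANNTTC was in 6.69% and TTCNNGAA in 7.17% of all 32851 promoters, and either in 12.8%. Of 10 windows of the 7 members in the RefSeq table, 6 held a motif, those of Hspa1a, Hspa1b, Hsph1, Hspd1 and Hspe1. These windows are not separate cases, so nothing is read from their share. The same Hsph1 site counts for 2 starts, Hspd1 and Hspe1 share 1 stretch, and the Hspa1a and Hspa1b windows are nearly identical. The windows of Dnajb1 and Hspa4 held neither. Hsp90aa1, Hsp90ab1 and Hspa8 were not in the table. A match is a description of the letters and not a binding site.

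**Figure D1:**
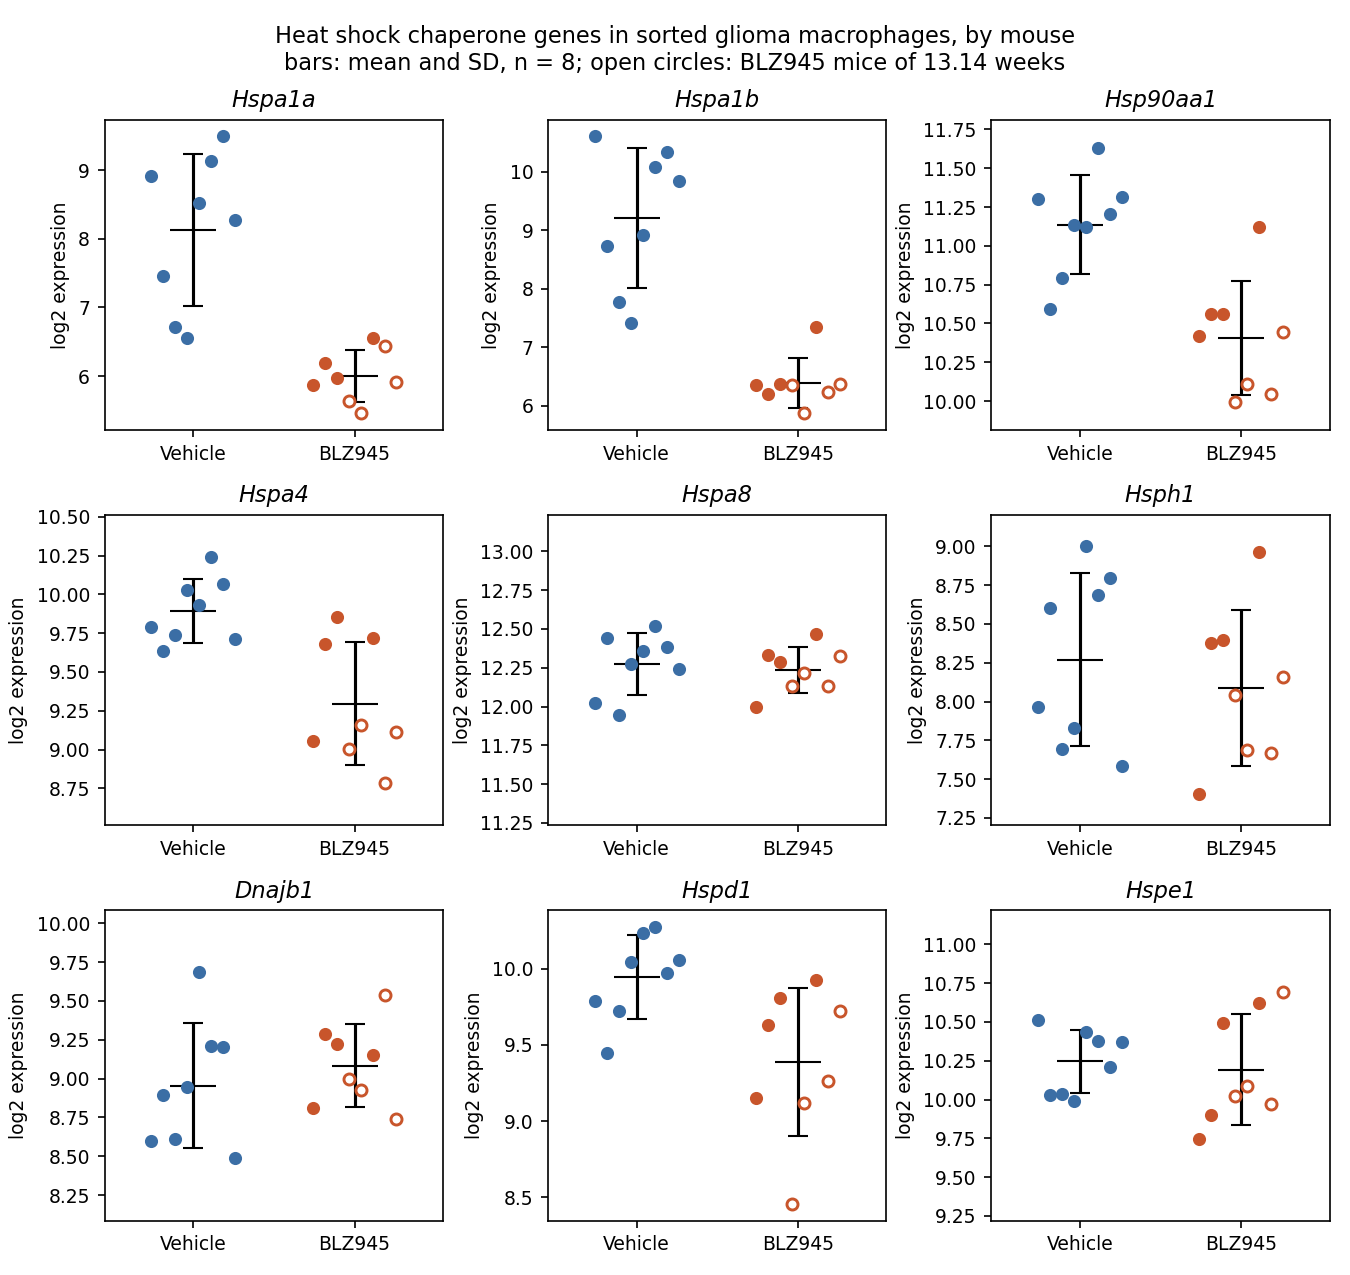
Log2 expression of the 9 measured chaperone genes in each of 8 Vehicle and 8 BLZ945 mice, 1 point per mouse, with the mean and SD as bars; open circles are BLZ945 mice of 13.14 weeks. The groups of Hspa1a and Hspa1b do not overlap, those of Hsp90aa1 overlap by 1 BLZ945 mouse at 11.12, and those of Hspa8, Dnajb1 and Hspe1 lie over each other.

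Among the Hsp70 genes the inducible pair was lower after BLZ945 and the constitutive gene was not distinguishable. Hspa1b ranged from 7.41 to 10.61 in Vehicle mice, with a median of 9.39, and from 5.86 to 7.35 in BLZ945 mice, with a median of 6.36. Vehicle mice 1, 6 and 7 were above 10 and Vehicle mice 3 and 4 were the lowest of their group, whereas 7 of the 8 BLZ945 mice lay at or below 6.37 and the groups did not overlap. The means were 9.22 ± 1.20 and 6.39 ± 0.43 (SD, n = 8 each), a difference of -2.83 (SE 0.40, 95% interval -3.66 to -1.999), which is 7.11-fold lower. In this probe set the Vehicle mice thus spanned a wider range than the BLZ945 mice. In the other 2 probe sets of Hspa1b the SDs of Vehicle and BLZ945 mice were 0.92 and 0.55, and 0.87 and 0.78, the last nearly alike.

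Hspa1a ranged from 6.56 to 9.50 in Vehicle mice, with a median of 8.397, and from 5.45 to 6.56 in BLZ945 mice, with a median of 5.94. Again Vehicle mice 3 and 4 were the lowest of their group, and the groups met without overlap, the lowest Vehicle mouse at 6.5574 and the highest BLZ945 mouse at 6.5568. Its means of 8.13 ± 1.11 and 6.00 ± 0.38 (SD, n = 8 each) differed by -2.13 (SE 0.37, interval -2.90 to -1.36), which is 4.38-fold lower. Hspa1a was read by 1 probe set only. Hspa1b had 3, and the other 2 differed by -3.12 and -3.31. In the second of these, BLZ945 mice 2, 3 and 7 were at 4.04 to 4.20 and the other 5 at 4.98 to 6.11.

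Across the Vehicle mice the probe sets of the 2 genes ranked the mice almost alike. As each may read transcripts of both genes, 2 genes and 1 shared signal cannot be told apart here. Hspa1a and Hspa1b had Pearson's r of 0.94 over 8 Vehicle mice (exact permutation p = 0.00122, adjusted p = 0.0194 over 16 relations) and Spearman's rho of 0.90 (exact permutation p = 0.00456, adjusted p = 0.0730). Without the 2 mice farthest from the median, r was 0.79. In BLZ945 mice r was 0.65 (n = 8, exact permutation p = 0.0650) and rho 0.43 (exact permutation p = 0.299), and r became -0.79 without the 2 farthest mice, so it rests on them. No other member passed the adjusted threshold of 0.05 with Hspa1b in either group; the next largest were Hsp90aa1 in BLZ945 (r = 0.80, exact permutation p = 0.0359, adjusted p = 0.191), which fell to 0.06 without the 2 farthest mice, and Hspe1 in Vehicle (r = 0.78, exact permutation p = 0.0331, adjusted p = 0.191).

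**Figure D2:**
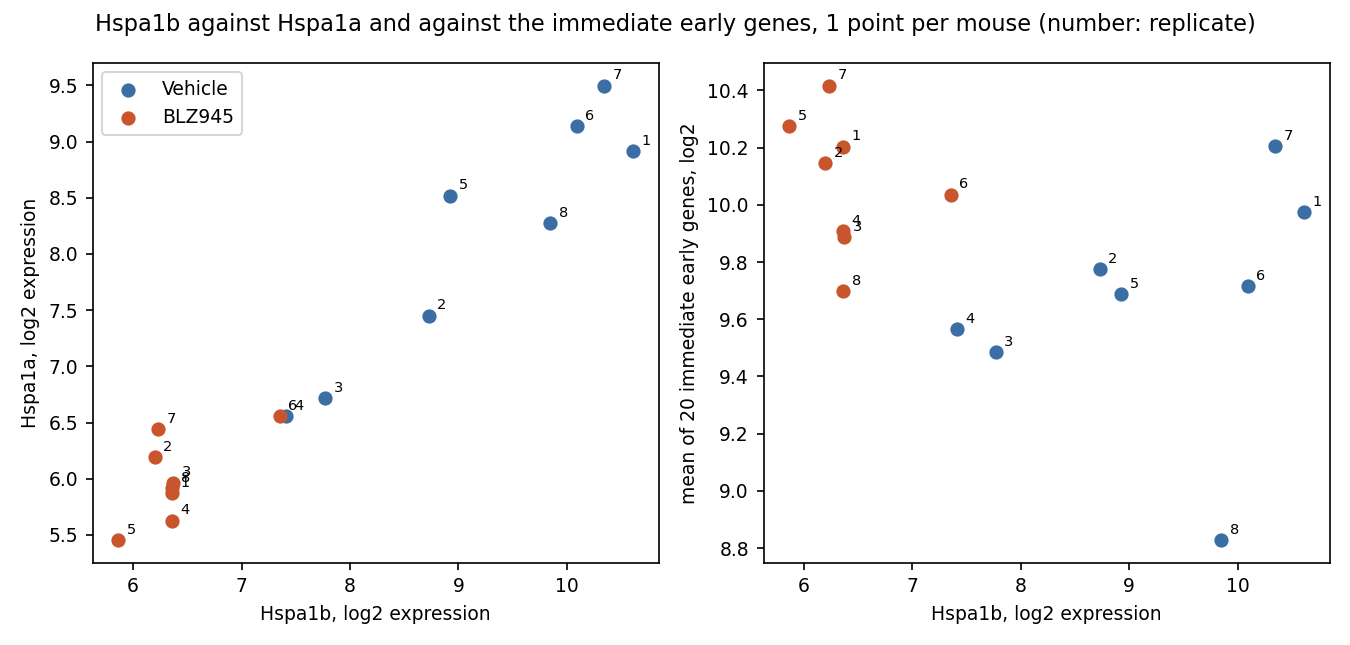
Left, log2 Hspa1a against log2 Hspa1b; right, the mean log2 level of 20 immediate early genes against log2 Hspa1b, 1 point per mouse with its replicate number, Vehicle in blue and BLZ945 in orange. On the left the Vehicle mice form a line (r = 0.94) and the BLZ945 mice lie at its low end; on the right Vehicle mouse 8 is the lowest at 8.83, and BLZ945 mice lie between 9.70 and 10.42.

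Hspa8, the constitutive Hsp70 that is abundant in unstressed cells, ranged from 11.95 to 12.52 in Vehicle (median 12.31) and from 12.00 to 12.47 in BLZ945 (median 12.25). Every BLZ945 mouse lay inside the Vehicle range. The difference was -0.04 (interval -0.26 to 0.18, limma adjusted p = 0.840). Its other 3 probe sets differed by -0.07, -0.32 and 0.08, and none passed over all probe sets.

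Of the Hsp110 genes and the J protein, 1 of 3 passed. Hspa4, an Hsp110 that acts as a nucleotide exchange factor, ranged from 9.64 to 10.24 in Vehicle mice (median 9.86) and from 8.78 to 9.86 in BLZ945 mice (median 9.14). The groups overlapped through BLZ945 mice 2, 3 and 6, and the other 5 BLZ945 mice were below every Vehicle mouse. Hspa4 fell from 9.89 ± 0.21 to 9.30 ± 0.40 (SD, n = 8 each), by 0.60 (SE 0.16, interval -0.92 to -0.27, limma adjusted p = 0.0220), or 1.51-fold. The call rested on 1 probe set, since the second gave -0.12 (adjusted p = 0.564), the third -0.04 (adjusted p = 0.929) and the mean of all 3 -0.25 (adjusted p = 0.272). It was also lost without Vehicle 6 (-0.55, adjusted p = 0.0505).

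Hsph1, the heat-inducible Hsp110, spread over more than 1 log2 unit in both groups, from 7.58 to 9.001 in Vehicle (median 8.28) and from 7.40 to 8.96 in BLZ945 (median 8.10). The groups lay over each other except for BLZ945 mouse 1, the lowest of all. The difference was -0.18 (SE 0.24, interval -0.69 to 0.32, limma adjusted p = 0.658), and -0.37 in its other probe set. Dnajb1, the Hsp40 that delivers clients to the inducible Hsp70, ranged from 8.49 to 9.68 in Vehicle (median 8.92) and from 8.74 to 9.54 in BLZ945 (median 9.07). No BLZ945 mouse lay outside the Vehicle range, and the difference was 0.13 (SE 0.16, interval -0.22 to 0.47, limma adjusted p = 0.648). Its other probe set differed by 0.31.

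Hsp90aa1, the inducible cytosolic Hsp90, ranged from 10.59 to 11.63 in Vehicle mice (median 11.17) and from 10.00 to 11.12 in BLZ945 mice (median 10.43). Only BLZ945 mouse 6, at 11.12, lay above the lowest Vehicle mouse. The means were 11.14 ± 0.32 and 10.41 ± 0.37 (SD, n = 8 each), a difference of -0.73 (SE 0.17, interval -1.08 to -0.38), which is 1.66-fold lower. The other 2 probe sets differed by -1.15 and -1.03, and BLZ945 mouse 4 was the lowest in both, at 7.23 and 7.01. Its 3 probe sets did not order the Vehicle mice alike, with r between -0.16 and 0.85 over 8 mice, given as a description.

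In the mitochondrial pair neither gene passed. Hspd1 ranged from 9.45 to 10.27 in Vehicle mice (median 10.01) and from 8.46 to 9.93 in BLZ945 mice (median 9.45). BLZ945 mouse 4 was the lowest, and 4 BLZ945 mice lay below every Vehicle mouse. Means of 9.94 ± 0.28 and 9.39 ± 0.49 (SD, n = 8 each) differed by -0.56 (SE 0.19, interval -0.95 to -0.17), which did not pass (limma adjusted p = 0.0742). It passed without Vehicle 2 (adjusted p = 0.0427) or without BLZ945 6 (adjusted p = 0.0358). Hspe1, its partner, ranged from 9.99 to 10.51 in Vehicle (median 10.29) and from 9.75 to 10.69 in BLZ945 (median 10.06), with BLZ945 mice above and below the Vehicle range. The difference was -0.05 (SE 0.15, interval -0.36 to 0.25, limma adjusted p = 0.840) and -0.10 in the other probe set. The 2 probe sets of Hspe1 had r of -0.51 in Vehicle and 0.07 in BLZ945 mice, so its values per mouse depend on the probe set. Whether Hspd1 and Hspe1 differed from each other was not tested.

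**Figure D3:**
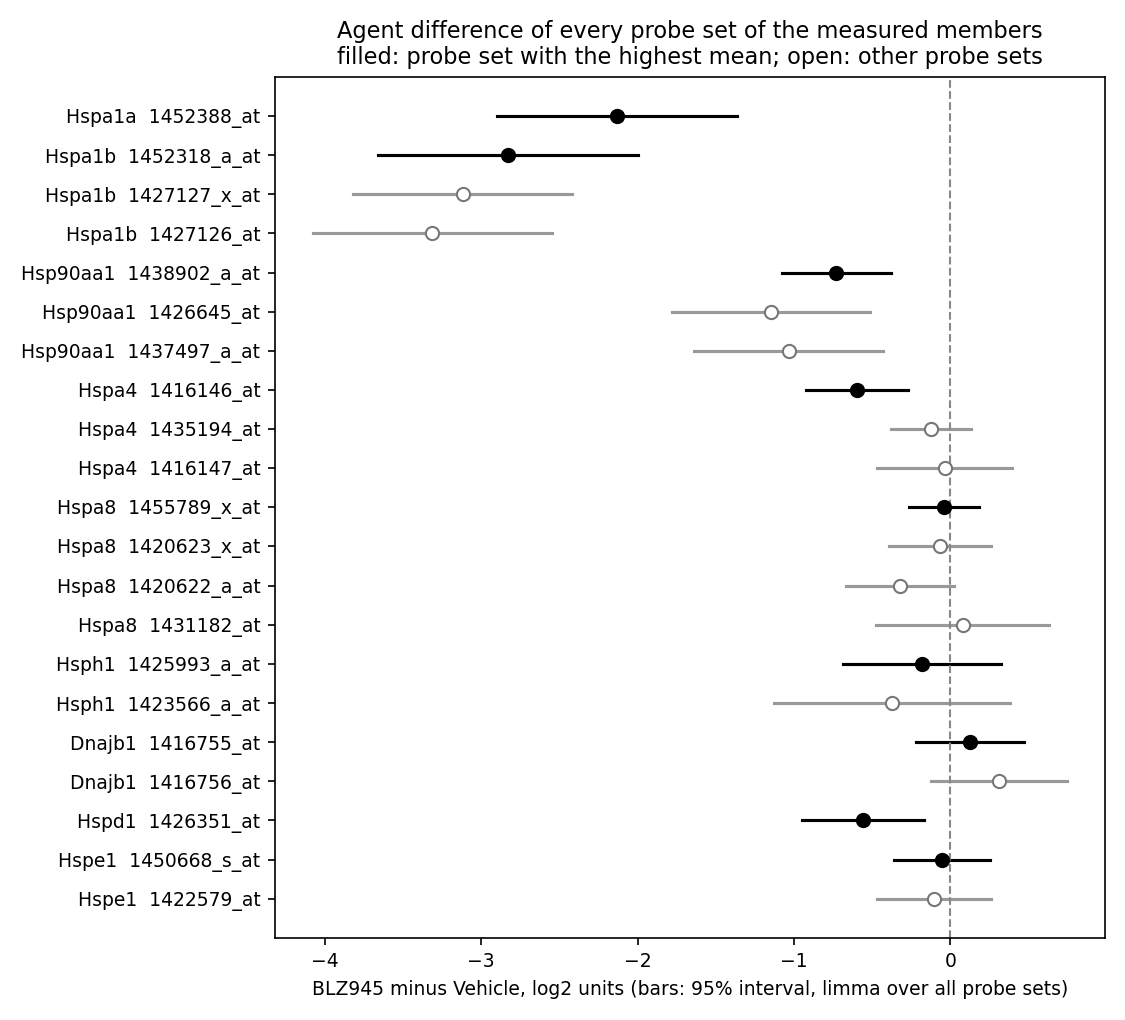
Difference in log2 level, BLZ945 minus Vehicle (8 mice each), of every probe set of the 9 measured genes, with 95% intervals from limma over all probe sets; filled points are the probe sets used. All 3 of Hspa1b and all 3 of Hsp90aa1 lie left of 0, whereas 1 of the 3 of Hspa4 lies clear of 0.

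Over the 9 measured members 4 passed the limma test at an adjusted p under 0.05, all lower in BLZ945, against 5.34% of the 12394 genes lower, 2.6% higher and 7.94% in either direction. Of all genes called, 67.3% were lower, and 47.3% with the SD of each array in the fit. With 3 of those 4 known when the list was made, nothing is read from that share. Differences were below 0 in 8 of 9 members and in 38.9% of all genes. With the SD of each array in the fit they were below 0 in 5 of 9 members, as Hspa8, Hsph1 and Hspe1 turned sign. The median difference was -0.56 for the members and 0.07 for all genes. It was -0.0079 over the genes left without the dimmest 40%, and all 9 members are among those brighter genes. In 2 of 9 members, Hspa1a and Hspa1b, every BLZ945 mouse was below every Vehicle mouse, against 1.04% of genes. Both were known to be lower when the list was made, so nothing is read from this share either. By size, the inducible Hsp70 pair lay beyond 2 log2 units, Hsp90aa1, Hspa4 and Hspd1 between -0.73 and -0.56, and the other 4 between -0.18 and 0.13.

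The ages and sexes were then compared. Within the 8 BLZ945 mice, 0 members passed an adjusted p under 0.05 between 13.14 and 11.29 weeks (0.0403% of genes passed), and 2 members had an unadjusted p under 0.05, as had 18.7% of all genes. Hspa4 was lower by -0.56 (adjusted p = 0.204) and Hsp90aa1 by -0.52 (adjusted p = 0.216) in the older mice. Hspa1b differed by -0.37 (adjusted p = 0.433) and Hspa1a by -0.29 (adjusted p = 0.511). For Hspa1b the older BLZ945 mice were at 6.20 ± 0.23 and the younger at 6.57 ± 0.53 (SD, n = 4 each), both below the 9.19 ± 1.34 of the 4 Vehicle mice of 11.29 weeks. At 11.29 weeks alone, with 4 mice a group, Hspa1b differed by -2.62 (adjusted p = 0.0801), Hspa1a by -2.28 (adjusted p = 0.103), Hsp90aa1 by -0.61 (adjusted p = 0.186), Hspd1 by -0.50 (adjusted p = 0.251) and Hspa4 by -0.49 (adjusted p = 0.263). All 9 differences were below 0 in these mice, as were those of 41.9% of all genes. No member passed, against 0.629% of genes lower and 0.718% in either direction, and 5 members had an unadjusted p under 0.05, against 15.2% of genes. These 5 include Hspa1a, Hspa1b and Hsp90aa1, known to be lower when the list was made, so nothing is read from their share.

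Between the sexes 0 members passed with treatment in the fit, and 0.0323% of genes did, with 2 members at an unadjusted p under 0.05, against 9.8% of genes. Dnajb1 was higher in males by 0.42 (adjusted p = 0.484) and Hsph1 by 0.49 (adjusted p = 0.508). The interaction of treatment and sex passed in 0 members and 0 genes, with 0 members and 3.34% of genes at an unadjusted p under 0.05. For Hspa1b the interaction was 1.06 (adjusted p = 0.983) and for Hspa1a 0.88 (adjusted p = 0.983). Hspa1b was at 9.58 ± 1.25 in female and 8.85 ± 1.20 in male Vehicle mice (SD, n = 4 each), and at 6.26 ± 0.22 in 5 female and 6.59 ± 0.66 in 3 male BLZ945 mice. Within BLZ945 mice the slope on log2 labelled volume passed in 0 members and 0 genes, with 0 members and 6.83% of genes at an unadjusted p under 0.05.

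The mean of the glioma markers was below every Vehicle mouse in 5 of 8 BLZ945 mice. Vehicle mouse 7, with the lowest Vehicle mean (6.31), had the highest Hspa1a (9.50). Vehicle mouse 6, with the highest mean (8.09), had the next highest Hspa1a (9.14), and Vehicle mouse 1, with a mean of 7.64, had 8.91. Vehicle mice 2, 3 and 4, with means of 6.73 to 6.85, had the lowest Hspa1a (6.56 to 7.45). These mice are examples, and the relation between the marker mean and Hspa1a was not tested. When the mean of each mouse was added to the fit, an alternative chosen after seeing the data, Hspa1b differed by -2.61 and passed the threshold. Hspa1a differed by -1.99 and only just passed it, while Hsp90aa1 (-0.63, adjusted p = 0.211) and Hspa4 (-0.47, adjusted p = 0.340) did not pass. The part of glioma cells in the results was not tested. The contrast of 3' and 5' control probe sets, a measure of RNA length, was 0.42 to 1.05 in Vehicle and 0.60 to 1.81 in BLZ945 mice. Added to the fit, an alternative also chosen after seeing the data, it left 4 members past the threshold. Age, entered as 13.14 weeks or younger, left 2, without Hsp90aa1 (-0.47, adjusted p = 0.180) and Hspa4 (-0.32, adjusted p = 0.340). As only BLZ945 mice were 13.14 weeks old, the treatment difference of this fit is that of the 4 younger BLZ945 mice from all 8 Vehicle mice. Ages among the Vehicle mice were not adjusted for. Labelled volume, which does not overlap between the groups, left 0 in 14 mice: Hspa1b differed by -3.40 (adjusted p = 0.0631) and Hspa1a by -3.71 (adjusted p = 0.0606).

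Genes of the surrounding chaperone system were taken from 9 lists chosen for their roles. Of 85 listed genes 78 were measured, 4 rose and 8 fell, so 10.3% fell against 5.34% of all genes, and 15.4% passed in either direction against 7.94%. These lists were drawn up with earlier results known, and nothing particular to them is read from the shares. Of the heat shock factor list, 3 genes were measured and none passed, the factors Hsf2 and Hsf4 and the binding protein Hsbp1; Hsf1 was not analysed here. Hsf4 differed by 0.05 and Hsbp1, which restrains the factor, by -0.37 (adjusted p = 0.0858, and 0.0270 without BLZ945 8). Of 10 J proteins 2 rose, Dnaja4 by 0.55 (adjusted p = 0.0153) and Dnajb2 by 0.54 (adjusted p = 0.0112). No small heat shock protein passed among 7, with Hspb1 at -0.51 (adjusted p = 0.0966, 0.0232 without BLZ945 4 and 0.0299 over the mean of its probe sets) and Cryab at 0.80 (adjusted p = 0.267), and none of 5 other Hsp70 and Hsp110 genes did, with Hspa14 at -0.41 (adjusted p = 0.146) and the testis-type Hsp70 gene Hspa1l at 0.20 (adjusted p = 0.394).

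Partners of the Hsp90 cycle and subunits of the cytosolic chaperonin were below 0 in most cases, against 38.9% of all genes, dim ones included. Nothing particular to these lists is read from that. Of 10 measured Hsp90 cofactors 2 fell and 9 differed below 0 (8 with the SD of each array in the fit), with a list median of -0.32. Fkbp5, an immunophilin that binds Hsp90 with steroid receptors, fell by 1.00, from 9.13 ± 0.27 to 8.13 ± 0.23 (SD, n = 8 each, adjusted p = 0.00016), with no overlap between the groups (-0.65 over the mean of its probe sets, adjusted p = 0.00119), and Cacybp fell by 0.64 (adjusted p = 0.0159). Of 8 subunits of TRiC, the chaperonin that folds actin and tubulin, 2 fell and all 8 differed below 0: Cct6a, with no overlap, by 0.87 (adjusted p = 0.000758) and Cct3 by 0.41 (adjusted p = 0.0282). The call of Cct3 was lost without any 1 of Vehicle mice 1, 6 and 8 or BLZ945 mice 1 and 5 (adjusted p 0.0520 to 0.0638) and over the mean of its probe sets (-0.30, adjusted p = 0.0958). Of 8 Hsp70 cofactors only Bag1, a nucleotide exchange factor, passed, falling by 0.43 (adjusted p = 0.0347; 0.0518 to 0.0734 without any 1 of Vehicle mice 1, 4, 5 and 6 or BLZ945 mice 1, 4, 5, 7 and 8). None of 8 other mitochondrial chaperones and proteases passed, with Hspa9 at -0.26 (adjusted p = 0.308) and Dnaja3 at -0.16 (adjusted p = 0.351).

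In the endoplasmic reticulum list, 2 of 19 genes rose and 3 fell, with a median of -0.20. Ddit3, the transcription factor CHOP, rose by 0.90 without overlap (adjusted p = 0.00103) and Atf4 by 0.53 (adjusted p = 0.0136), while Pdia4 fell by 0.46 (adjusted p = 0.0312), Pdia6 by 0.35 (adjusted p = 0.0483) and Calr by 0.37 (adjusted p = 0.0494), the last named after its value was seen. The call of Pdia4 was lost without any 1 of Vehicle mice 1, 3, 4 and 8 or BLZ945 mice 2, 7 and 8 (adjusted p 0.0512 to 0.0668), and that of Pdia6 without any mouse other than Vehicle 3, BLZ945 3 and BLZ945 6 (0.0617 to 0.0962). Over the mean of all probe sets of a gene, 0 of the 19 fell, with Pdia4 at -0.0404 (adjusted p = 0.868) and Pdia6 at -0.23 (adjusted p = 0.165). Hspa5, the reticulum's Hsp70, named for its role outside the rule for named genes, differed by -0.15 (adjusted p = 0.496). Of 20 immediate early genes, which rise quickly with stress and handling, 4 rose, Dusp1 by 1.22 (adjusted p = 0.0106), Atf3 by 0.90 (adjusted p = 0.0107), Jund by 0.75 (adjusted p = 0.00219) and Fos by 0.49 (adjusted p = 0.0463). Of all genes 2.6% rose. This list too was drawn up with earlier results known, so nothing particular to it is read from its share. The call of Fos was lost without any 1 of Vehicle mice 3 to 6 or any BLZ945 mouse (adjusted p 0.0517 to 0.0869). With the replicate number as a block 10 of the 20 rose, although the numbers do not pair the mice. 

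**Figure D4:**
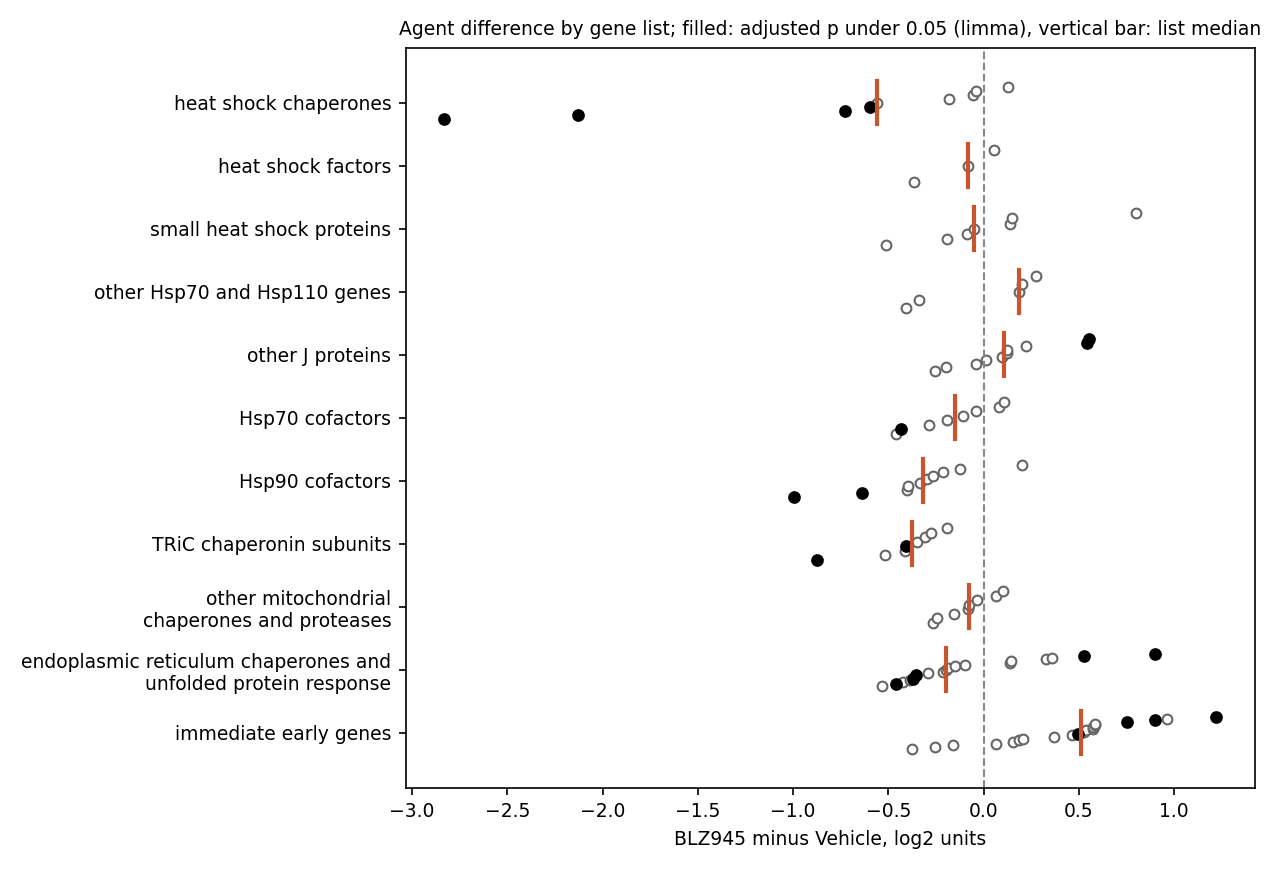
Difference in log2 level, BLZ945 minus Vehicle (8 mice each), of each measured gene in the chaperone list and 10 related lists; filled points have a limma adjusted p under 0.05 and the orange bars are list medians. The chaperone list reaches -2.83 with a median of -0.56, and the immediate early list has a median of 0.51.

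The genes whose levels varied most like a member among the mice were found from 16 mice after each group's mean was subtracted, as a description. For Hspa1b these were Sbk1 (r = 0.81), Gnb1 (0.79), Ifi204 (0.78), Ptpn12 (0.77) and Cmpk2 (0.77). Hsp90aa1 was most like Kpna2 (r = 0.91), Prim1, Mcm4, Xpo1 and St13 (0.90 each). Hspd1 was most like Abce1 (r = 0.95), Arl1 (0.95), Psmc6 (0.94), Msh6 (0.93) and Dbt (0.93). Karyopherin alpha 2 (Kpna2) and exportin 1 (Xpo1) carry proteins through the nuclear pore, and Prim1, Mcm4 and Msh6 act in DNA replication or repair.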

How the data were processed

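RNA of sorted macrophages from 16 mice, 8 Vehicle and 8 BLZ945, was measured on 1 Affymetrix 3' array per mouse. The authors deposited 1 value per probe set and array on a log2 scale, as the values themselves show. GCOS 1.4 and RMA are named, per the submitters' processing notes, without the role of each, and a genome build is not given in the sources used here. Such values compress differences of dim probe sets. Scanner intensities were not used here, so no probe set was called above background; precision is limited by the 8 arrays a group.

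Of 22690 probe sets, 20393 had 1 symbol in the platform annotation, 691 several and 1606 none, and 12394 genes were tested through their brightest probe set on average. limma 3.58.1 in R 4.3.3 (lmFit, eBayes, no covariate, no filter) compared BLZ945 with Vehicle, with Benjamini-Hochberg adjustment over all genes and a threshold of 0.05. Every adjusted p of a single gene is limma's, and differences are BLZ945 minus Vehicle. Further fits tested sex, its interaction with treatment, age and volume within BLZ945. Co-variation used exact two-sided permutation of all pairings. The fit was tested on simulated data. Each mouse is labelled as a separate sample.

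The members and lists were chosen with earlier results of these data known. Named were all members, up to 4 passing genes of each related list (by smallest p; 2 genes where none passed), the 5 genes most like each of 3 members, and the 2 brightest markers of a list; exceptions are marked. Alternatives changed the probe sets, dim genes, normalization, eBayes settings, array weights, covariates and mice. Promoters are from RefSeq (GRCm38.p6).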

Additional observations from a re-analysis of the deposited data

Results flagged for a closer look

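Hspa1b in BLZ945 mouse 6, at 7.35, stood apart from the other 7 BLZ945 mice, the nearest of which was at 6.37. The gap was 0.659 of the group's range, above Dixon's critical value for 8 samples. It was seen in the probe set used. In the other 2 probe sets of Hspa1b mouse 6 was also the highest BLZ945 mouse, at 6.19 and 6.11. There BLZ945 mouse 1 was close to it, at 6.01 and 5.91, so mouse 6 did not stand apart. Of 18 groups tested, 9 genes in 2 treatments, this was the 1 flagged, and chance flags about 1 in 20. The same mouse had the highest BLZ945 value of Hspa1a, Hsp90aa1, Hspa8, Hsph1 and Hspd1, and it was still below every Vehicle mouse for Hspa1b. It also had the highest mean of the natural killer cell markers, 7.22, whose part in this value was not tested.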

How the results depend on the processing

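The count of members passing (4) became 2 with age as a covariate, 0 with labelled volume in 14 mice, 0 in mice of 11.29 weeks, 0 in males only and 2 with the glioma marker mean, the last chosen after seeing the data. For 98 related genes the count of 16 became 8, 0, 1, 0 and 3 under the same alternatives, and 4 in females only. Subsets hold fewer mice, and otherwise the cause was not tested. Leaving out 1 mouse gave 3 to 5 members and 11 to 19 related genes. With the replicate block 4 members and 18 related genes passed; deviations of mice with the same number correlated between -0.48 and 0.39, so the numbers do not pair the mice.

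Some differences that had not passed, and 2 that had, turned sign. Hspe1 became 0.0204 with quantile normalization, 0.0190 with array weights, 0.0485 with the array SD, 0.10 with the glioma marker mean and 0.0092 without BLZ945 1. Hspa8 became 0.0169 with array weights, 0.0346 with the array SD and 0.0065 in females. Hsph1 became 0.0146 with age and 0.10 with the array SD. Hsf4 became -0.0492 with quantile normalization, -0.0222 with age and -0.0711 with the array SD. With volume, Dnajb1 became -0.71, Cryab -1.83, and the called genes Pdia4 0.18 and Atf3 -0.13. Dnajb1 became -0.14 in mice of 11.29 weeks, and Hspa1l -0.15 in males. Hspa1a and Hspa1b kept their sign in all 16 alternatives and passed in 13. Those fits reuse the arrays in which both genes were already known to be lower, so these counts support nothing further. Over all genes 984 passed, against 388 with age, 15 with volume, 1644 with the array SD, 260 with the glioma marker mean, 89 in mice of 11.29 weeks, 393 in females and 2 in males.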
